A study of Caenorhabditis elegans with 2 samples.

Results

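The genes tasp-1, vps-37 and mdt-26 of the nematode Caenorhabditis elegans each carried 1 of the strongest regions called for the tagged Y105C5A.15 protein. The summit lay just before, well before and inside the gene respectively. These are 3 of the 19973 protein-coding genes of the annotation. They were chosen by name, each as the nearest gene start to 1 of the 25 strongest regions found with both replicates together, so the strength of those regions chose the genes and is given here as a description without a test. At the limit of that choice, the region in 25th place had a signal of 148.5 and the region in 26th place had 148.2. All peaks with a summit from 2000 bases upstream of a gene's start to the gene's end were collected.

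The samples were 2 biological replicates of 1 group of whole L4 larvae, 48 hours old, synchronised by starving newly hatched larvae after bleaching. All worms were of strain OP773, an unc-119 (tm4063) mutant with the integrated array wgIs773. That array expresses Y105C5A.15 fused to TY1, EGFP and 3xFLAG and restores unc-119. Chromatin was sonicated and precipitated with an antibody against GFP. No sample here lacked the fusion protein, so signal that would arise without it cannot be told apart from binding at these genes. Whole animals were used, so the tissue in which the protein was bound cannot be read from the lists. The lists hold no read counts, and the depth behind each value is unknown.

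Taspase, the protein of tasp-1, belongs to a family of proteases. In mammals and flies it cuts the histone methyltransferase MLL and the general transcription factor TFIIA, which both act in gene transcription. Vps37, the protein of vps-37, is a subunit of ESCRT-I, an assembly that sorts ubiquitin-marked membrane proteins into the inner vesicles of endosomes. Med26, the protein of mdt-26, is a subunit of Mediator, which links transcription factors to RNA polymerase II. As background, tRNA genes are transcribed by RNA polymerase III, and their internal promoter has 2 parts named the A box and the B box.

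Sequences under the regions are shown first because they set the genes apart from each other. All were read from the RefSeq copy of assembly WBcel235, which has the coordinates of ce11, and all run 5′ to 3′. The region of tasp-1 covers chrIII:10759117-10759372 and reaches into the first exon. The part upstream of the gene start is shown, plus strand, chrIII:10759117-10759306, with capitals for a stretch that recurs under another strong region.
tasp-1: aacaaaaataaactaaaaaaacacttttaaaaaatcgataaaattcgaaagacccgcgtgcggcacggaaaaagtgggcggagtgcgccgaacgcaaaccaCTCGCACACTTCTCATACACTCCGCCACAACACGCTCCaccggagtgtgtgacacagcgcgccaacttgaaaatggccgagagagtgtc

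The region of vps-37 lay between genes and is shown whole, plus strand, chrV:5591964-5592219. Capitals mark a match to GTTCNANNC, the core of the B box, a word searched after the sequence had been seen. The A box was not marked, and nothing is said here of its presence. Below it stands the tRNA pseudogene K10B2.t1 of chromosome II, minus strand, chrII:6358367-6358438, which the region resembles.
vps-37: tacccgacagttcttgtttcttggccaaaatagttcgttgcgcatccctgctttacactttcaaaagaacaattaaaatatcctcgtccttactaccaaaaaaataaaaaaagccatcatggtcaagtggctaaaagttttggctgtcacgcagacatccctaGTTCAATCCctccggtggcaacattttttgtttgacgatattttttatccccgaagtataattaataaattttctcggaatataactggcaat
K10B2.t1: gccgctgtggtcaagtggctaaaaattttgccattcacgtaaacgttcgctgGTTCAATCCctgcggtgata

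The region of mdt-26 spans an exon and the sequence on both sides of it and is shown whole, plus strand, chrII:5661678-5661857. Capitals mark the words GGCCGA, here on the minus strand, and GAGAGA.
mdt-26: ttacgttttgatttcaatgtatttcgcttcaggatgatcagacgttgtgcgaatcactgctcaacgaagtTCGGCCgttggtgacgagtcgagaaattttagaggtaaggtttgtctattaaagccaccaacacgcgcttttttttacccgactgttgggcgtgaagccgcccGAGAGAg

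Each gene had exactly 1 region of the authors' main list in its window, and each of those regions was also called in the conservative list and in the list of each replicate alone. The main list is the longer of the lists that the authors thresholded over both replicates. All of its 1046 peaks have an irreproducible discovery rate (IDR, a rate of ranks that fail to repeat) under 0.01 in the longer ranked list, and they merged into 1023 regions. Over all protein-coding genes, 4.86% had a summit of the main list in the same window, 4.06% one of the conservative list, 1.72% one of replicate 1 alone and 1.6% one of replicate 2 alone. With any overlap in place of the summit the main list reached 5.39% of genes, its upper 50% by signal 2.51%, and a window of 1000 bases upstream to 200 downstream 1.94%. Since strength chose the 3 genes, nothing is read from their count. The signal is the authors' value for a peak, on a scale that the labels do not state.

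At tasp-1 (WBGene00010480, chromosome III, 10759307 to 10763021, plus strand) the signal was 68.4 in replicate 1 and 86.9 in replicate 2, and 150.8 with both together. The mean of the replicates was 77.7 ± 13.0 (SD, n = 2). Replicate 2 was the higher at this gene. The region took place 22 among the 1023 main regions, place 34 of 349 in replicate 1 and place 16 of 323 in replicate 2.

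At vps-37 (WBGene00016990, chromosome V, 5592700 to 5593612, plus strand) the signal was 81.1 in replicate 1 and 77.9 in replicate 2, and 161.8 with both together. The mean was 79.5 ± 2.29 (SD, n = 2), the smallest spread of the 3 genes. The region took place 17 in the main list, place 16 in replicate 1 and place 23 in replicate 2.

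At mdt-26 (WBGene00016115, chromosome II, 5661181 to 5665243, plus strand) the signal was 96.1 in replicate 1 and 75.8 in replicate 2, and 168.9 with both together. The mean was 85.9 ± 14.4 (SD, n = 2), and here replicate 1 was the higher. The region took place 14 in the main list, place 7 in replicate 1 and place 26 in replicate 2.

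**Figure D1:**
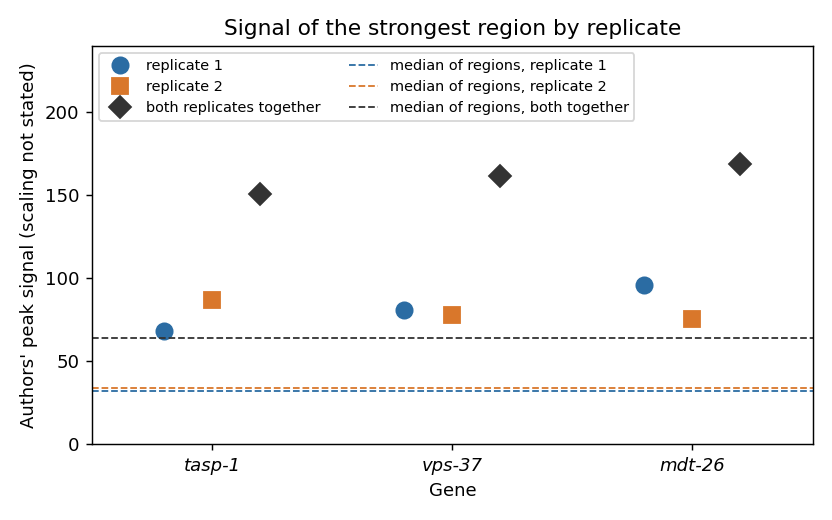
Signal of the strongest region at each gene (y axis, the authors' peak signal, with no unit given) in replicate 1 (circles), replicate 2 (squares) and both together (diamonds). Dashed lines are the medians over the main regions, 31.9 in replicate 1, 34.2 in replicate 2 and 64.1 with both together, and every point lies above the line of its own colour.

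The order of the 3 genes was not the same in both replicates. With both together it ran from mdt-26 through vps-37 to tasp-1, as it did in replicate 1. In replicate 2 tasp-1 was the highest at 86.9 and mdt-26 the lowest at 75.8. The means of 77.7, 79.5 and 85.9 lay closer together than the SDs of 13.0 at tasp-1 and 14.4 at mdt-26, so neighbours in this order do not differ beyond their spread. Between replicates the signal differed 1.27-fold at tasp-1 and at mdt-26, in opposite directions, and 1.04-fold at vps-37. Among the 997 main regions that each replicate's ranked list also covers, the median difference was 1.29-fold, with quartiles at 1.14 and 1.57. The summits of the replicates lay 37 bases apart at tasp-1, 10 at vps-37 and 27 at mdt-26, against a median of 25 over the same 997 regions. Among the 25 strongest main regions, which include these 3, the median difference in signal was 1.22-fold. Their summits lay a median of 15 bases apart, with an upper quartile of 27.

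**Figure D2:**
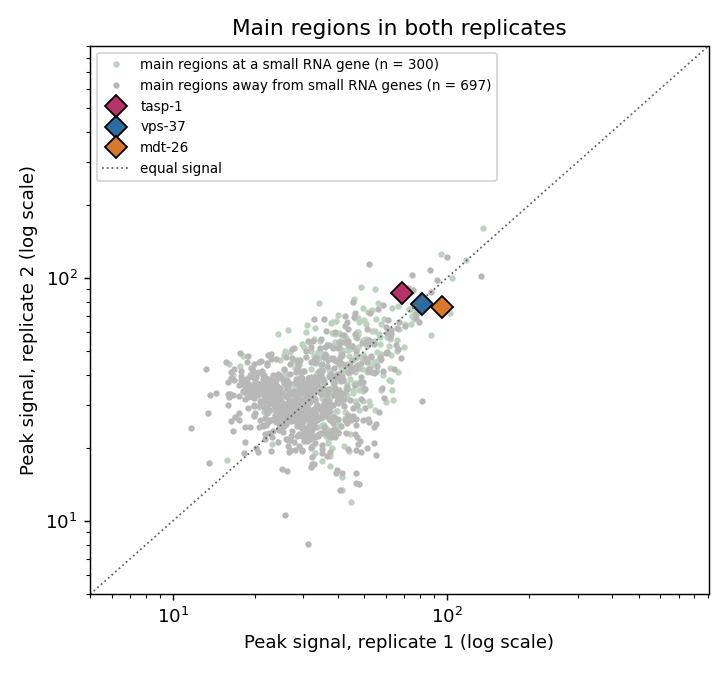
Signal of each of the 997 main regions in replicate 1 (x axis) and replicate 2 (y axis), both on log scales in the authors' signal, with regions at small RNA genes in green and the others in grey. The diamonds of tasp-1 (68.4 and 86.9), vps-37 (81.1 and 77.9) and mdt-26 (96.1 and 75.8) sit at the upper end of the cloud, near the dotted line of equal signal.

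The authors' ranked lists, which hold peaks past and short of the IDR limit, placed the regions lower. In the longer ranked list over both replicates, with 103220 peaks, mdt-26 took place 52, vps-37 place 60 and tasp-1 place 68. The main list lacks some of the stronger ranked peaks and was merged into regions, so the places differ. The highest signal was 2922.4 in the longer ranked list and 296.4 in the main list. The 3 regions are thus among the strongest of the main list, far under the highest ranked peaks. The IDR in that list was 4.02e-05 at mdt-26, 5.22e-05 at vps-37 and 5.36e-05 at tasp-1. In replicate 1 it was 6.14e-05 at tasp-1 and 5.38e-05 at vps-37. At mdt-26 it was 1e-05, the lowest value in that list, though mdt-26 took only place 45 there by signal. In replicate 2 it was 6.15e-05 at tasp-1, 0.00014 at vps-37 and 0.000116 at mdt-26.

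The summits lay in different places relative to the genes. That of tasp-1, at 10759245 on chromosome III, was 62 bases upstream of the gene start with both replicates together, 72 upstream in replicate 1 and 35 upstream in replicate 2. The gene has 3 annotated transcripts, and relative to the starts of the other two the summit was at -140 and -424. The nearest start on the other side was that of K01G5.10, a coding gene on the opposite strand, 723 bases away, so the summit lies in the gap from which both genes are transcribed outward.

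At vps-37 the summit, at 5592092 on chromosome V, was 608 bases upstream of the start with both replicates together, 622 upstream in replicate 1 and 612 upstream in replicate 2. It was intergenic, 409 bases past the end of CD4.11, a coding gene on the same strand. It was thus closer to the end of CD4.11 than to the start of vps-37.

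The summit of mdt-26, at 5661745 on chromosome II, was 564 bases downstream of the start with both replicates together, 561 in replicate 1 and 588 in replicate 2. It fell in exon 2 of the coding transcript, a coding exon of 72 bases (5661710 to 5661781), and all 3 summits were inside that exon. In a non-coding transcript of the same gene this stretch is the end of a first exon of 588 bases. The nearest gene upstream was ift-43, which begins 959 bases from the summit and runs the opposite way.

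Small RNA genes were not close to any of these summits. No non-coding gene of any kind lay within 2000 bases. The nearest was the ncRNA gene CD4.17, 3915 bases from the summit of vps-37, followed by K01G5.11 at 11075 bases from that of tasp-1 and F59E12.14 at 12053 bases from that of mdt-26. The nearest tRNA, snoRNA, snRNA or rRNA genes were all snoRNA genes, 38262 bases away at vps-37 (T01C2.6), 39917 at mdt-26 (C18A3.12) and 62436 at tasp-1 (K11D9.10). For comparison, 310 of the 1023 main regions had their summit within 100 bases of a gene of these 4 kinds. The nearest other main region lay 4798 bases from the summit of vps-37, 38920 bases from that of tasp-1 and 84523 bases from that of mdt-26.

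Weaker ranked peaks surrounded the summits, most of them at mdt-26. In the longer ranked list there were 12 peaks in the window of mdt-26, 5 in that of tasp-1 and 4 in that of vps-37. Per 1000 bases of window this was 1.98 at mdt-26, 0.875 at tasp-1 and 1.37 at vps-37, against 1.03 over the genome. These counts include the strongest peak of each gene, which the choice of the genes had placed there in advance. No excess of weaker peaks over the genome is therefore read from them. The strongest peak exceeded the next one 3.57-fold at mdt-26, 4.16-fold at tasp-1 and 5.03-fold at vps-37.

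The second peak of mdt-26 lay at its start, 16 bases downstream, with a signal of 47.4. Its IDR of 0.0114 in the longer ranked list was just past the limit, and in the shorter one it was 0.0668. In replicate 1 a peak 15 bases downstream had a signal of 26.8, and in replicate 2 a peak 64 bases upstream had 18.3. Further into the gene, a peak 1268 bases downstream reached 40.1 with an IDR of 0.0233, and a peak 2768 bases downstream reached 41.8 with 0.148. The IDR of that last peak in the shorter ranked list was 0.467. In replicate 2 it had 27.04 and was the second of the gene, while replicate 1 had no ranked peak overlapping it. The nearest in replicate 1 lay 2449 bases downstream, with a signal of 7.36.

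At tasp-1 the second peak was 1242 bases upstream, inside K01G5.10, with a signal of 36.3 and an IDR of 0.161. The replicates had 16.1 each there. At vps-37 it was 1908 bases upstream, inside CD4.11, with an IDR of 0.239, and the replicates had 16.3 and 16.9. None of these secondary peaks was in a thresholded list.

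**Figure D3:**
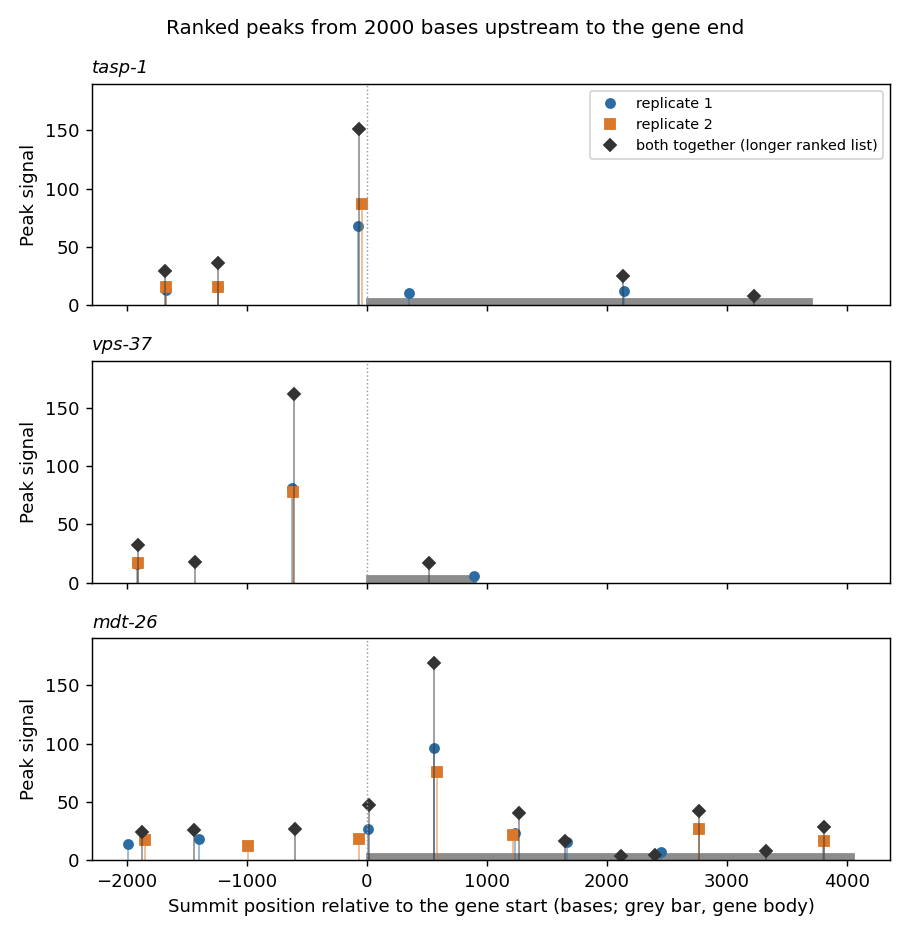
Signal (y axis) of every ranked peak by the place of its summit relative to the gene start (x axis, bases) at each gene, for replicate 1 (circles), replicate 2 (squares) and both together (diamonds), with the gene body as a grey bar. A single tall peak stands 62 bases upstream at tasp-1, 608 bases upstream at vps-37 and 564 bases downstream at mdt-26, over lower peaks of at most 47.4.

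The sequence under the vps-37 region has diverged relatives in the genome, and those near C14C11.7 and F09E5.7 also carried strong regions. A BLAST search of the whole region at an E value of at most 0.01 found 6 other places aligned across its summit, at 76.7 to 86.7% identity. Of these 6, 3 overlapped a main region, 1 more held a peak in the longer ranked list, and 1 more held ranked peaks in the replicates only. Main regions cover 0.264% of the genome and the longer ranked list covers 25.9%.

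The closest relative by E value lay on chromosome V (5667411 to 5667646, 198 of 240 aligned positions identical), upstream of the coding gene C14C11.7. Its signal was 75.1 in replicate 1, 89.6 in replicate 2 and 163.8 with both together, next to the 81.1, 77.9 and 161.8 of the vps-37 region. The summit was 1452 bases upstream of C14C11.7. A second relative, on chromosome II (5353799 to 5353925, 111 identical positions, 86.7%), lay downstream of F09E5.7 and had 58.3, 77.1 and 136.2. Another, in an intron of lips-10 (II, 8441621 to 8441721, 79 of 103 positions), had 32.9, 20.9 and 63.2. That region was not a strong one: it took place 534 of 1023, under the main median of 64.1, and was absent from the conservative list, whereas the regions near C14C11.7 and F09E5.7 took places 16 and 33.

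The other relatives were weak or without a peak. The place of the tRNA pseudogene K10B2.t1 itself, which lies within the coding gene C32D5.12, had 19.96 in replicate 1 and 23.9 in replicate 2. With both together it had 43.3 at an IDR of 0.0568, so it was not called. A relative in an intron of hst-3.1 had 14.4 and 14.1. A short one in an intron of tom-1, with 43 of 52 positions identical, had no ranked peak. The order of identity is not the order of signal, since the 86.7% relative lay below the 82.5% relative in both replicates.

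The 3 relatives with a main region are shown on the strand that matches the vps-37 sequence above, the minus strand in each case, at chrV:5667411-5667646, chrII:5353799-5353925 and chrII:8441621-8441721. Capitals again mark GTTCNANNC, which all 3 hold.
C14C11.7 relative: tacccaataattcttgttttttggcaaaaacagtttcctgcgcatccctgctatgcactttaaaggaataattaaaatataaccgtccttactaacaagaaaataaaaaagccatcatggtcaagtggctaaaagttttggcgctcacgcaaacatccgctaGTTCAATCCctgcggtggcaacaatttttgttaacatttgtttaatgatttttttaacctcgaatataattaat
F09E5.7 relative: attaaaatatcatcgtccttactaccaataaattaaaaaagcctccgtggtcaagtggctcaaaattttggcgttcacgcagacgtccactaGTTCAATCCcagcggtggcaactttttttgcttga
lips-10 relative: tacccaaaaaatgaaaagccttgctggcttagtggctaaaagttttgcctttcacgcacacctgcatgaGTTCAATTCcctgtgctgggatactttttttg

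**Figure D4:**
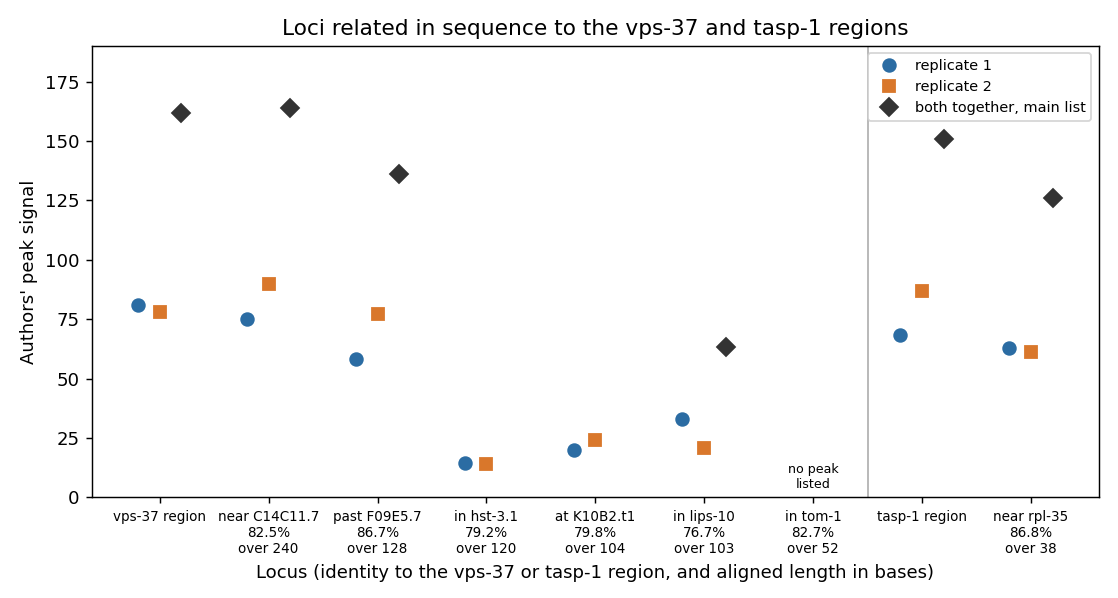
Signal (y axis) at the vps-37 region and its 6 relatives, left of the line, and at the tasp-1 region and its relative, right of it, in replicate 1 (circles), replicate 2 (squares) and the main list over both (diamonds), with identity and aligned length under each name. The places near C14C11.7 and past F09E5.7 reach 163.8 and 136.2 with both together, close to the 161.8 of vps-37, while the place in tom-1 has no peak listed.

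Set against annotated small RNA genes directly, the vps-37 region resembled tRNA pseudogenes but no annotated tRNA gene at this E value. Of 612 tRNA genes none aligned, and of 209 tRNA pseudogenes in the RefSeq annotation 2 did. K10B2.t1 matched at 51 of 62 positions (82.3%), from 5592083 to 5592143. This stretch held the vps-37 summit of both replicates together and that of replicate 2, at 5592088. The summit of replicate 1, at 5592078, lay before its start. F59A1.t8 on chromosome V matched at 25 of 30 positions, and its place had a ranked signal of 47.2 with no main region. The B box core GTTCNANNC began 35 bases downstream of the vps-37 summit. It occurred on either strand in 15.0% of windows of 256 bases at the 713 main regions away from small RNA genes, and in 7.12% of such windows directly upstream of protein-coding starts.

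The tasp-1 region shared a short stretch with the region upstream of rpl-35, a gene of the large ribosomal subunit. The stretch of 38 bases around the tasp-1 summit (chrIII:10759218-10759255, plus strand) matched chrIII:7854670-7854707, minus strand, at 33 positions. It held the tasp-1 summit of both replicates together and that of replicate 1, at 10759235. The summit of replicate 2, at 10759272, lay past its end. Capitals mark the 5 bases that differ.
tasp-1 stretch: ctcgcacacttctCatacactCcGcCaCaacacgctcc
rpl-35 stretch: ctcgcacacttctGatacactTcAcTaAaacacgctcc

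At the rpl-35 stretch the signal was 62.6 in replicate 1, 61.1 in replicate 2 and 126.1 with both together, with the summit 457 bases upstream of rpl-35. It was the only place in the genome aligned across the tasp-1 summit of both replicates together, with an E value of 0.000252. The other 9 alignments of the tasp-1 region lay to one side of the summit, and none overlapped a main region. In the comparison with small RNA genes the tasp-1 region matched the snoRNA gene T27C4.7 at 26 of 27 bases, away from the summit, and the ranked signal at T27C4.7 was 2.76. The mdt-26 region had no relative at all by this search and resembled no annotated small RNA gene.

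Short words were counted on both strands in windows of 256 bases centred on the summits. GGCCGA occurred once at tasp-1, 47 bases from the summit, and once at mdt-26, 3 bases from it, but not at vps-37. It was found in 11.2% of windows at main regions away from small RNA genes and in 3.34% of windows upstream of coding starts. The word GAGAGA was likewise present once at tasp-1, where it overlaps GGCCGA, and once at mdt-26, and those shares were 25.8% and 19.4%. At tasp-1 alone ACCACT occurred once, with shares of 12.2% and 7.43%. None of the 3 windows held GTTCGA, with shares of 14.2% and 7.83%. The same was true of CGAACC, with 9.12% and 2.85%, and of TATAAA, with 20.9% and 35.7%. Matches of GTTCGA on one strand can overlap those of CGAACC on the other, and some matches of GTTCNANNC contain GTTCGA. The GC content of the windows was 48.0% at tasp-1, 44.9% at mdt-26 and 37.5% at vps-37, against medians of 41.8% at main regions away from small RNA genes and 33.2% upstream of coding starts.

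All 3 genes are followed closely by another gene on the same strand. The coding gene dpy-28, of a condensin complex, begins 109 bases past tasp-1, mrpl-48, of the mitochondrial ribosome, 93 bases past vps-37, and C25H3.15 85 bases past mdt-26. Among all protein-coding genes 9.55% have a same-strand coding neighbour within 200 bases of their end, and among the 360 coding genes nearest to a main region away from small RNA genes 12.2% do. This feature was chosen after it had been seen, and it is given as a description of 3 genes. In C. elegans, closely spaced genes on the same strand are often transcribed together as operons.

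Other genes with related roles were examined from 3 lists, each counted without the gene chosen for its signal. Of the 10 genes listed with tasp-1, from the MLL/COMPASS complexes and TFIIA, 3 had a main summit, against 4.86% of all coding genes. These were set-16, an MLL-family methyltransferase gene, pqn-51, which codes for the large TFIIA subunit, and ash-2, a COMPASS subunit gene. At set-16 the summit was 172 bases upstream of the start, with a signal of 40.9 in replicate 1, 38.4 in replicate 2 and 72.8 with both together. At pqn-51 it was 285 bases downstream, in an intron, with 32.7, 34.2 and 65.7, and the nearest start was that of K11D12.14. At ash-2 it was 507 bases downstream, with 23.7, 33.9 and 55.8, and the nearest start was that of Y17G7B.20. Among the 1023 main regions these took place 352 at set-16, 470 at pqn-51 and 770 at ash-2.

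Of the 18 ESCRT genes other than vps-37, 2 had a main summit (11.1%, against 4.86% of all coding genes). The ESCRT-III-related gene chmp-7 had it 163 bases upstream of its start, with a signal of 30.4 in replicate 1, 21.5 in replicate 2 and 51.6 with both together. The ESCRT-II gene vps-25 had it 4346 bases into the gene, in an intron, with 23.7, 29.5 and 53.9, and the nearest start there was that of toe-4. Both regions lay under the main median of 64.1, at place 891 for chmp-7 and 825 for vps-25 among 1023. The other ESCRT-I genes, tsg-101, vps-28 and mvb-12, had none.

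Of the 27 Mediator genes other than mdt-26, 2 had a main summit (7.41%, against 4.86% of all coding genes). At mdt-8 it was 1177 bases upstream, with a signal of 55.4 in replicate 1, 25.1 in replicate 2 and 77.1 with both together, and the nearest start was that of Y62F5A.12. At mdt-4 it was 1304 bases downstream, in a coding exon, with 31.2, 29.2 and 49.3, and the nearest start was that of the snoRNA gene ZK546.18. Among the 1023 main regions these took place 303 at mdt-8 and 940 at mdt-4. Without the chosen genes, the median of the strongest ranked peak in the window was 45.3 over the 10 genes listed with tasp-1. It was 35.4 over the 17 other ESCRT genes with a ranked peak and 29.0 over the 25 such Mediator genes, against 31.0 over the 17724 such coding genes. Longer genes have longer windows, so these counts depend on gene length, and nothing particular to a list is read from them.

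Regions with signals most like those of the 3 genes were sought over the 2 replicates among 372 main regions away from small RNA genes with a coding gene as the nearest start. The measure was the Euclidean distance in log2 signal. Since strength chose the 3 genes, the nearest regions in signal are other strong ones by construction, and nothing is read from that. For tasp-1 the nearest were C14C11.7 (0.14), F09E5.7 (0.29) and vps-37 (0.29). For vps-37 they were C14C11.7 (0.23), the ribosomal protein gene rpl-15 (0.24) and mdt-26 (0.25). For mdt-26 they were vps-37 (0.25), rpl-15 (0.34) and the ribosomal protein gene rpl-3 (0.38). The regions near C14C11.7 and F09E5.7 are the sequence relatives of the vps-37 region described above.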

How the data were processed

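The deposited files are peak lists for each of 2 replicates and for both together, on assembly ce11 per the labels' text records. Per the labels' text records they were made from filtered alignments and a control alignment. Which aligner and caller made them is not given. The signal comes from the authors' peak caller on an unstated scale. The deposited score, a whole number derived from the IDR, was not printed. The authors' −log10 of the global IDR was turned back into the IDR. The thresholded lists name 1 further input, whose role is not stated, and lack some stronger ranked peaks. Read counts were not used here, so depth is unknown.

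Overlapping peaks were merged into regions with the strongest summit. A replicate's signal at a region is its strongest overlapping ranked peak. Genes came from Ensembl release 115 (WBcel235), whose chromosome lengths covered all peaks. BLAST 2.17.0 was run with word size 7 and no masking. Other steps used pandas 2.3.3 and pysam 0.24.0. The window count was tested on simulated data. No tests were made. The genes, lists and words were chosen with earlier results of these data known. Genes were named by rule: the 3 genes, their neighbours, listed genes with a main summit and the 3 nearest in signal. The sequence relatives and following genes were added after their values were seen. Of the list names, 1 ESCRT and 3 Mediator names matched no further coding gene.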

Additional observations from a re-analysis of the deposited data

How the results depend on the processing

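The regions of all 3 genes were present in the conservative list, in each replicate alone and with any overlap in place of the summit. They were also in the upper 50% by signal, which the choice of the genes by strength had fixed in advance. With a window of 1000 bases upstream to 200 downstream, 2 of 3 genes kept theirs, since the mdt-26 summit lies outside it. That window left 1.94% of coding genes with a summit, 0 Mediator genes and 2 taspase-list genes, by its shorter length. The upper 50% by signal left 2.51% of coding genes and 1 ESCRT gene, by its fewer regions. With a single replicate the share of coding genes was 1.6 to 1.72%. The ESCRT, Mediator and taspase-list counts were then 1 to 2 each, with the chosen gene included, against 3, 3 and 4 in the main list. In the conservative list, which reached 4.06% of coding genes, these counts were 2, 4 and 4. The Mediator count was thus higher there than in the main list. The share of regions with a lower signal, high by the choice of the genes, was 97.85% at tasp-1, 98.34% at vps-37 and 98.63% at mdt-26. It was 97.35%, 97.95% and 98.32% in the conservative list and 98.32%, 98.46% and 98.88% away from small RNA genes, and 98.37% at vps-37 with single peaks. In the ranked list of a single replicate it was 99.81 to 99.89%, 99.86 to 99.86% and 99.86 to 99.91%, where many weak peaks enter. Summit offsets in single replicates ran from -72 to -35 at tasp-1, from -622 to -612 at vps-37 and from 561 to 588 at mdt-26. At an E value of at most 1e-05, chosen after seeing the data, the rpl-35 stretch was not found, and the 3 relatives of vps-37 with a main region were. No paired analysis was possible because there is 1 group. Depth limits cannot be given without read counts.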
